A study of Mus musculus with 8 samples.

Results

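Kcnj10, Kcnj16, Bsnd, Atp1b1 and Fxyd2 encode proteins of the basolateral membrane of the distal convoluted tubule (DCT), the short nephron segment that follows the thick ascending limb and reabsorbs salt through the thiazide-sensitive cotransporter. They were chosen by name as subunits of the potassium channel, the chloride channel and the sodium pump, and each was read by its probe set carrying exactly 1 gene symbol. These 5 genes were members of the 18782 genes that the arrays measured in that way. Each of the 5 had a single such probe set, and none depended on a probe set with several symbols.

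DCT fragments were isolated from male mice on the C57/Bl6 background at an age of 8 weeks. The animals were wild-type or TBC1D4-deficient, and each genotype gave 4 samples. All animals, controls included, also carried an EGFP transgene under the parvalbumin promoter, and the fluorescent tubules were collected with a COPAS large-particle sorter. Parvalbumin is made mainly in the early DCT, so the later part of the segment may be underrepresented. TBC1D4 acts on Rab GTPases and holds back vesicles bearing the glucose transporter GLUT4 from the cell surface, and the study asked what changes in the DCT without it. The sources used here do not say which part of the gene was removed. The labels do not tie samples to separate animals, so every p-value below reflects only the spread between these samples.

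In DCT cells the sodium pump of the basolateral membrane exports sodium and takes up potassium. Potassium returns to the interstitium through a channel assembled from Kir4.1 (Kcnj10) and Kir5.1 (Kcnj16). Its activity sets the membrane voltage, and with it the exit of chloride through basolateral channels that need the small subunit barttin (Bsnd). The fall and rise of intracellular chloride is sensed by WNK kinases, so this set of proteins links plasma potassium to apical salt uptake. Atp1b1 is the β1 subunit that carries the pump to the membrane, and Fxyd2 is the γ subunit that tunes its affinity for sodium. Inherited loss of KCNJ10, BSND or FXYD2 function causes salt or magnesium wasting.

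The upstream sequences at listed starts are shown as a description and to set the channel partners beside each other. RefSeq start sites (GRCm38.p6) were held for 3 of the 5 genes, Kcnj10, Kcnj16 and Atp1b1. The 250 bases before the start are printed 5′ to 3′ on the strand of the gene. Capitals mark matches on either strand to any of 3 motifs. These are the TATA box written as TATAAA, the GC box written as GGGCGG, and the motif CCAAT. None of the matches shown overlaps another.

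Kcnj10, chr1:172340960-172341209, plus strand: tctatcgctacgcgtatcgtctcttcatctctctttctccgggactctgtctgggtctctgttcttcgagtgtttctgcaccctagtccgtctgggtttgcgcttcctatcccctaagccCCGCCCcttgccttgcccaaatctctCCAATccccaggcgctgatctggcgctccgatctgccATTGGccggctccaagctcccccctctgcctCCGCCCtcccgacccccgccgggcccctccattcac
Kcnj16, first of its listed starts, chr11:110967783-110968032, plus strand: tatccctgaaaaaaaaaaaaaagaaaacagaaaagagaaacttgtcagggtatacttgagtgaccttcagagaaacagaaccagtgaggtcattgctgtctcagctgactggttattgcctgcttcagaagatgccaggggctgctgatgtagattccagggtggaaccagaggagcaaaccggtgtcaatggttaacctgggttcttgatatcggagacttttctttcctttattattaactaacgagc
Atp1b1, chr1:164458356-164458605, minus strand: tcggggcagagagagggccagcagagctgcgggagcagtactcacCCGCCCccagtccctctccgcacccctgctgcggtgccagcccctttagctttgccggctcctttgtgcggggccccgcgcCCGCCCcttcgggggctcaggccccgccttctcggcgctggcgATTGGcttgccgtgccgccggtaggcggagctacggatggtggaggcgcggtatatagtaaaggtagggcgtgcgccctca

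The Kcnj10 window is 62% G and C with 17 CpG dinucleotides, and holds 2 GC boxes and 2 CCAAT motifs. The Kcnj16 window shown is 42.8% G and C with 3 CpG dinucleotides, and holds none of these letters on either strand. The windows at its starts 2, 3 and 4 are 47.6%, 51.2% and 44.8% G and C. Start 3 has a TATAAA match whose first base lies at -133 relative to the start. Start 4 has a GC box and a CCAAT motif, the same kinds of match as Kcnj10. The Atp1b1 window is 70.4% G and C with 24 CpG dinucleotides, 2 GC boxes and 1 CCAAT motif. The median over 32851 RefSeq windows of the same length was 52.4% G and C. TATAAA occurred in 12.4% of those windows, GGGCGG in 32.7% and CCAAT in 33.8%. RefSeq lists 4 starts for Kcnj16 and 1 each for Kcnj10 and Atp1b1, and the sources used here do not say which start the probe set covers. A match of letters, or its absence, is a description and says nothing of binding.

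Tbc1d4 itself separated the genotypes as labelled. It (probe set 10422028) had intensities of 95.6 to 122.8 in wild-type and 4.64 to 6.59 in TBC1D4-deficient tubules, a log2 difference of -4.27 (SE 0.11; limma adjusted p = 6.35e-08). It was the 1 probe set of 23039 that passed an adjusted p of 0.05, which is 0.00434% of those tested. Slc12a3, the thiazide-sensitive cotransporter, had a mean log2 level of 11.49 in either genotype. All 12 measured DCT markers had log2 levels from 8.35 to 11.5. Pvalb (parvalbumin), whose promoter drove the transgene used for sorting, is among the 12. No unsorted sample was at hand, and some markers of other segments reached such levels too. The levels are therefore a description and do not by themselves show DCT identity. Markers of other segments were also read. Wild-type means ran from 1.98 to 11.1 over 10 thick ascending limb markers, with Umod at the top. Kcnj1 stood at 10.6 and Slc12a1 at 7.54, while Cldn16 and Cldn10 were at 5.47 and 4.78. How much thick ascending limb the sort carried cannot be read from this mixed list. Over 19 proximal tubule markers wild-type means ran from 4.52 to 9.73, with Slc34a1 at the top. In such bulk samples fewer cells of a type and less RNA per cell cannot be told apart. The tables hold no detection call, so a dim value cannot be told from background.

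None of the 5 genes passed the test between genotypes, and all differences were small. Of the 5, 4 stood slightly above and 1 slightly below 0, with log2 differences from -0.0024 to 0.07, and 0 passed the threshold (limma adjusted p = 0.99991 for each, over all 23039 probe sets). Unadjusted, 0 of the 5 had p below 0.05, against 2.9% of all probe sets. The median difference was 0.03 over the 5 genes and -0.0017 over all probe sets. The 95% interval lay inside 1.2-fold either way for all 5 genes, as it did for 59.2% of all probe sets, so changes of 1.2-fold or more lay outside each of these 5 intervals. That limit was passed in 9 of 24 alternative fits for Kcnj10, 3 for Bsnd, 1 each for Kcnj16 and Fxyd2 and 0 for Atp1b1. An interval inside 1.5-fold was found for all 5 and for 97.4% of all probe sets, and for the 5 genes it stayed there in all 24 alternatives.

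Kcnj10, the pore-forming Kir4.1 subunit (probe set 10351781, chromosome 1), had intensities of 387.5, 497.4, 408.5 and 437.4 in wild-type replicates 1 to 4. In TBC1D4-deficient replicates 1 to 4 it read 429.6, 443.4, 475.9 and 456.9. The wild-type arrays held both the lowest and the highest of the 8 values, and the TBC1D4-deficient arrays lay between them. The log2 mean was 8.75 ± 0.16 (SD, n = 4) for wild-type and 8.82 ± 0.06 (SD, n = 4) for TBC1D4-deficient samples. The log2 difference was 0.07 (SE 0.08, 95% interval -0.12 to 0.25), or 1.05-fold (0.923 to 1.19). An exact 2-sided permutation test gave p = 0.486, where 4 arrays against 4 can give no less than 0.0286.

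Kcnj16, the Kir5.1 subunit that makes the channel sensitive to intracellular pH (probe set 10382316, chromosome 11), read 1037, 999.4, 1031 and 982.3 in wild-type replicates 1 to 4. It read 1041, 1024, 1027 and 1051 in TBC1D4-deficient replicates 1 to 4. The TBC1D4-deficient values were all within the upper part of the range, 2 of them above every wild-type array, while wild-type replicates 1 and 3 overlapped them. The log2 difference was 0.03 (95% interval -0.09 to 0.15; exact permutation p = 0.229).

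Because both subunits assemble in one channel, the ratio of Kcnj10 to Kcnj16 within an array was also compared. Its log2 value was -1.23 ± 0.18 (SD, n = 4) for wild-type and -1.2 ± 0.07 (SD, n = 4) for TBC1D4-deficient samples. The difference was 0.03 (SE 0.1; exact permutation p = 0.743), and wild-type replicates 1 and 2 marked its extremes at -1.42 and -1.01. The level of this ratio depends on the probes, so only its change between arrays can be read.

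Bsnd, which encodes barttin (probe set 10514806, chromosome 4), read 458, 502.4, 520.5 and 509.9 in wild-type replicates 1 to 4. It read 517.3, 539.6, 463.5 and 546.3 in TBC1D4-deficient replicates 1 to 4. Both groups contained 1 low array, wild-type replicate 1 and TBC1D4-deficient replicate 3, and 2 TBC1D4-deficient arrays exceeded every wild-type array. The log2 difference was 0.05 (SE 0.07, 95% interval -0.11 to 0.21), or 1.04-fold (0.927 to 1.16), with an exact permutation p of 0.457. It was 0.013 without wild-type replicate 1 and 0.104 without TBC1D4-deficient replicate 3.

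Atp1b1, the β1 subunit of the pump (probe set 10359689, chromosome 1), hardly moved. Its intensity was 2314, 2310, 2375 and 2334 in wild-type replicates 1 to 4 and 2333, 2340, 2310 and 2334 in TBC1D4-deficient replicates 1 to 4. The groups shared the same lowest value and overlapped throughout. The log2 difference was -0.0024 (95% interval -0.12 to 0.11; exact permutation p = 0.857), and its sign turned under 2 other scalings, to 0.05 with quantile normalization and 0.018 when arrays were median-centred. Its intensity reached 59.6% of the brightest value on an array.

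Fxyd2, the γ subunit of the pump (probe set 10584891, chromosome 9), read 1311, 1310, 1313 and 1412 in wild-type replicates 1 to 4. It read 1370, 1330, 1348 and 1426 in TBC1D4-deficient replicates 1 to 4. Wild-type replicates 1 to 3 were nearly equal and lay below all TBC1D4-deficient arrays, whereas wild-type replicate 4 lay above 3 of them. The log2 difference was 0.03 (SE 0.06, 95% interval -0.09 to 0.16; exact permutation p = 0.371), and it was 0.06 without wild-type replicate 4 and 0.014 without TBC1D4-deficient replicate 4.

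**Figure D1:**
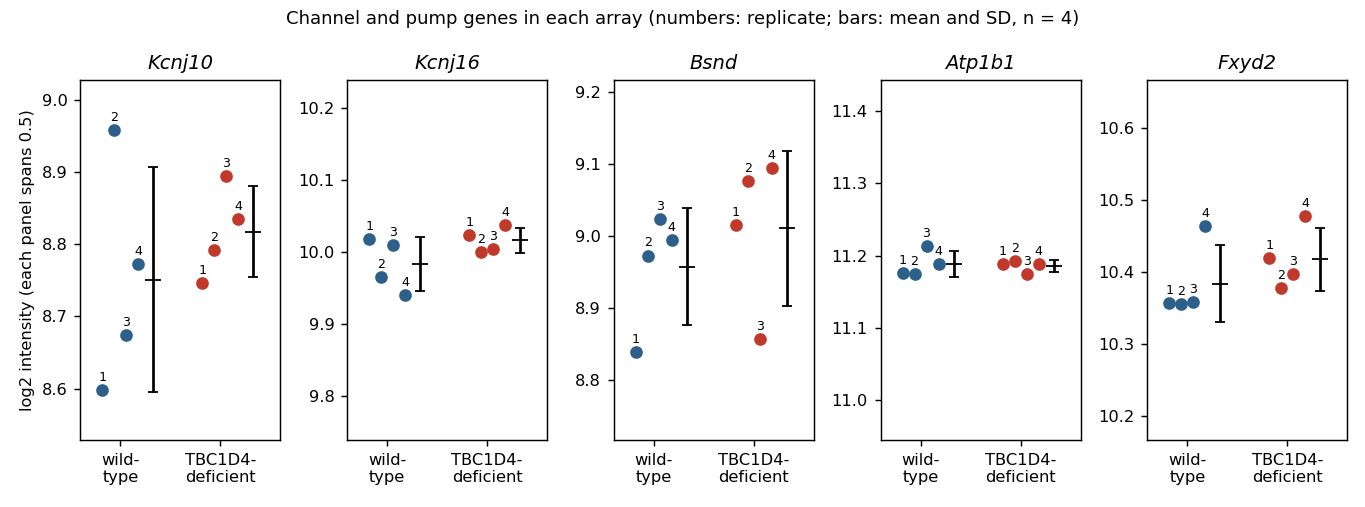
Log2 intensity of the 5 genes in each array, wild-type in blue and TBC1D4-deficient in red, with replicate numbers above the points and the mean and SD of 4 arrays beside them; every panel spans 0.5 on the log2 axis. Kcnj10 and Bsnd scatter most and Atp1b1 least, and the groups overlap in every panel.

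The 5 genes differed in how much they varied between arrays of one genotype. The residual SD, the spread around the genotype means, was 0.12 on the log2 scale for Kcnj10, 0.1 for Bsnd, 0.05 for Fxyd2, 0.029 for Kcnj16 and 0.014 for Atp1b1. Between the lowest and the highest of the 8 arrays, Kcnj10 spanned 1.28-fold, Bsnd 1.19-fold, Fxyd2 1.09-fold, Kcnj16 1.07-fold and Atp1b1 1.03-fold. The typical residual SD is smaller for brighter probe sets, with medians of 0.08 near the level of Kcnj10 and 0.04 near that of Atp1b1, so each gene was set against probe sets of 1 symbol whose mean log2 level lay within 0.5 of its own. Of 291 such probe sets, 0 had a smaller residual SD than Kcnj16, and 1 of 49 had a smaller one than Atp1b1. For Fxyd2 it was 70 of 193, for Bsnd 360 of 527 and for Kcnj10 506 of 608. Each of these totals includes the probe set of the gene itself. After quantile normalization the counts were 68 for Kcnj16, 9 for Atp1b1, 63 for Fxyd2, 328 for Bsnd and 518 for Kcnj10. The steadiness of Kcnj16 and of Atp1b1 was thus less marked under that scaling.

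Across the 8 arrays the 5 genes showed no detectable tendency to move together. Of 10 pairs, 0 passed after adjustment (smallest adjusted exact permutation p = 0.966). Kcnj10 and Kcnj16 had a Pearson r of -0.322 (exact permutation p = 0.436, adjusted p = 0.99) and a Spearman rho of -0.333 (exact permutation p = 0.428), and r was 0.0856 without the 2 arrays farthest from the Kcnj10 median and -0.619 with genotype means removed (exact permutation p = 0.0978). The closest pair was Bsnd with Atp1b1, at r = 0.604 (exact permutation p = 0.114, adjusted p = 0.966) and rho = 0.759 (exact permutation p = 0.0365), and r dropped to 0.293 without the 2 arrays farthest from the Bsnd median. Kcnj10 and Atp1b1 had an r of -0.435 (exact permutation p = 0.289, adjusted p = 0.966), which was -0.896 without the 2 arrays farthest from the Kcnj10 median. Too few arrays shared a label number to repeat these within such sets.

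Among the 5 genes, Kcnj10 had the widest separation, which did not pass the test, by the identifier number in the sample descriptions, whose meaning is not stated. The 4 arrays of the lower number range (wild-type replicate 2 with TBC1D4-deficient replicates 1, 3 and 4) had Kcnj10 intensities of 429.6 to 497.4. The 4 arrays of the higher range had 387.5 to 443.4, so the ranges overlapped only slightly. With genotype in the model, the log2 difference between the ranges was -0.15 (95% interval -0.35 to 0.04; limma adjusted p = 0.9998), while the other 4 genes stood between -0.0084 and 0.03. The Kcnj10 value was -0.033 without wild-type replicate 2, -0.277 without TBC1D4-deficient replicate 2 and -0.218 once the mean of the proximal tubule markers was in the model. The last pair had unadjusted limma p-values of 0.0432 and 0.0471 and adjusted p-values of 0.99997 and 0.621. By that contrast 0 of the 5 genes passed, against 0% of all probe sets; 4.9% of all probe sets and 0 of the 5 had an unadjusted p below 0.05. The identifier range is unbalanced between genotypes, and with it as a covariate the genotype difference of Kcnj10 was -0.011 in place of 0.07. Within the ranges the genotype difference of Kcnj10 was -0.13 and 0.11, resting on 1 wild-type array in the first and 1 TBC1D4-deficient array in the second. This contrast was added after the values were seen; as a covariate of the genotype fit, the range had been planned.

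**Figure D2:**
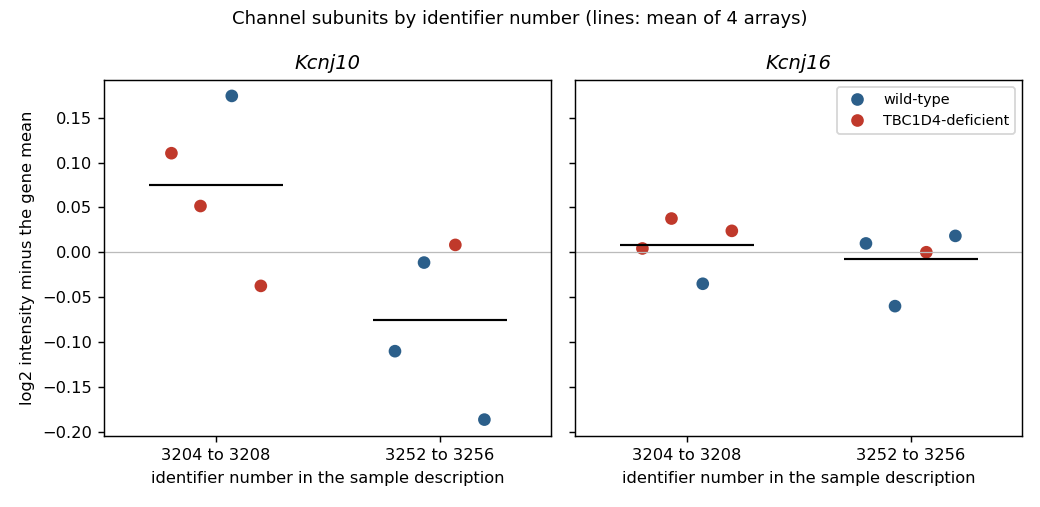
Log2 intensity minus the mean of the gene for Kcnj10 and Kcnj16, with arrays split by the identifier number in their descriptions (horizontal axis), wild-type in blue, TBC1D4-deficient in red, and a line at the mean of 4 arrays. The Kcnj10 means are 8.86 and 8.71 before centring, while those of Kcnj16 are 10.01 and 9.99.

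The descriptions open with a second number, and those numbered 5 to 8 and 9 to 12 each hold 2 arrays of each genotype. Kcnj10 was lower in the second set by a log2 difference of -0.11 (95% interval -0.29 to 0.06; limma adjusted p = 0.609). The value was -0.053 without wild-type replicate 2, -0.166 without wild-type replicate 3 and -0.054 with the identifier range as a further covariate. The other 4 genes lay between -0.0086 and 0.0072. Of the 5 genes 0 passed, against 0.00868% of all probe sets, and 0 had an unadjusted p below 0.05, against 11.6% of all probe sets. Genotype differences within the first and the second set were 0.05 and 0.08 for Kcnj10, 0.03 and 0.03 for Kcnj16, -0.023 and 0.13 for Bsnd, -0.013 and 0.0078 for Atp1b1, and 0.08 and -0.011 for Fxyd2. The interaction of genotype with the number set passed for 0 of the 5 genes (limma adjusted p = 0.9994 for each) and for 0% of all probe sets, with 0 of the 5 and 4.51% of all probe sets below an unadjusted p of 0.05.

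Markers of the proximal tubule varied widely between arrays, and no relation of the 5 genes to them passed. The mean of 19 proximal tubule markers, each centred on its own mean, spanned -1.03 (TBC1D4-deficient replicate 1) to 0.69 (wild-type replicate 3) on the log2 scale. It was 0.28, 0.06 and 0.09 in TBC1D4-deficient replicates 2 to 4, and -0.44, -0.33 and 0.69 in wild-type replicates 1, 2 and 4. Over that span the slopes of the 5 genes, in log2 units per log2 unit of the marker mean, were between -0.022 and 0.04. The Pearson r ranged from -0.394 for Kcnj16 to 0.527 for Atp1b1. Of 10 relations tested, with the proximal tubule mean and with the mean of 10 thick ascending limb markers, 0 passed (smallest adjusted exact permutation p = 0.918). The highest of these 10 r values was 0.585, for Atp1b1 with the thick ascending limb mean (rho = 0.482; exact permutation p = 0.125 and 0.234), and it was 0.403 without the 2 arrays farthest from the median of that mean. The rho of Atp1b1 with the proximal tubule mean was 0.735 (exact permutation p = 0.0456, adjusted p = 0.456), but r turned to -0.429 after quantile normalization.

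Kcnj15 stood in contrast. It encodes Kir4.2, the relative of Kir4.1 that serves the basolateral membrane of the proximal tubule, and was singled out after its values were seen. Its probe set (10437151) read 50.2, 59.8, 115.6 and 118.8 in wild-type replicates 1 to 4 and 31.8, 90.8, 72 and 75.6 in TBC1D4-deficient replicates 1 to 4, a span of 3.74-fold. These values followed the proximal tubule mean with a slope of 1.08 and r = 0.996 (rho = 0.976; exact permutation p = 4.96e-05 and 0.000397, adjusted p = 0.00119 and 0.00952 over 24 relations of 12 partner genes). Without the 2 arrays farthest from the median, r was 0.992. With the thick ascending limb mean, Kcnj15 had r = 0.8 (exact permutation p = 0.0199, adjusted p = 0.176), which was 0.389 without the same 2 arrays. The other 11 partner genes had r from -0.35 to 0.486 with the proximal tubule mean, and 0 of them passed. Among these, Kcnj9, Atp1a4, Atp1b2, Atp1b4, Fxyd1, Fxyd4, Fxyd5 and Fxyd7 had low wild-type means, from 1.72 to 3.51. Probe sets so dim may be unable to follow a marker mean, so their lack of relation says little. Number sets of 4 arrays are too small to repeat the relation within them.

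**Figure D3:**
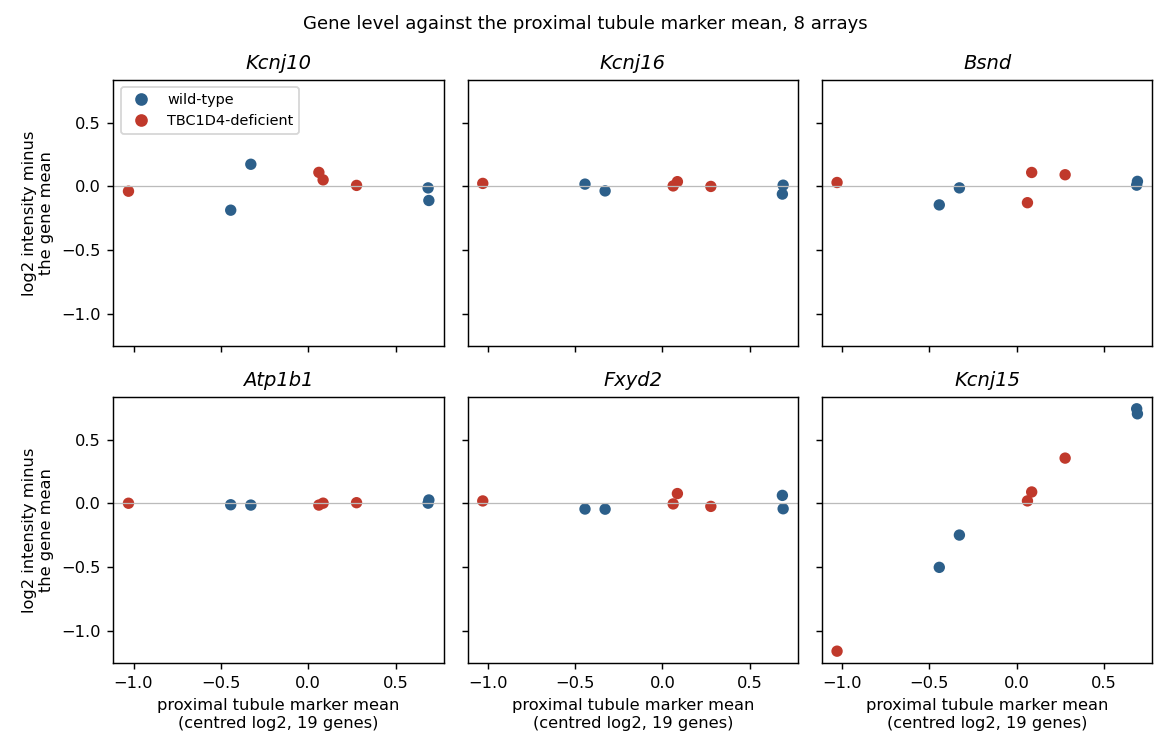
Log2 intensity minus the mean of the gene (vertical axis) against the mean of 19 proximal tubule markers (horizontal axis, centred log2) in the 8 arrays, wild-type in blue and TBC1D4-deficient in red. Kcnj15 climbs along the marker mean with a slope of 1.08, and the 5 channel and pump genes stay level.

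Partners of the channels and the pump were taken from a list in which 12 genes had a probe set of 1 symbol, while Fxyd3 had only one of several symbols and some others were not analysed here. Of the 12, 4 lay above and 8 below 0, 0 passed, the median difference was -0.05, and 0 had groups that did not overlap (1.85% of all probe sets; 0 also of the 5 genes). Beside these stood the proximal tubule mean, lower by 0.3 in the TBC1D4-deficient arrays (log2 difference -0.303, exact permutation p = 0.514, adjusted p = 0.771) with all 19 of its genes below 0. Its part in the genotype differences of the partners, that of Kcnj15 included, was not tested.

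Among channel relatives, Kcnj15 had a log2 difference of -0.35 (95% interval -1.15 to 0.46), the only interval of the 12 that left 1.5-fold. Kcnj13, the Kir7.1 channel, stood at -0.2 (-0.48 to 0.08), and Kcnj9, a G-protein-gated channel subunit, at 0.01. The wild-type mean of Kcnj9 was only 2.28. Among pump subunits, Atp1b3, the β3 subunit, was read by the brighter of its 2 probe sets of 1 symbol. That probe set had intensities of 239.4 to 279 in wild-type and 272 to 297.2 in TBC1D4-deficient arrays. Its log2 difference was 0.09 (-0.06 to 0.24). Its groups overlapped by a narrow margin. Atp1a4, Atp1b2 and Atp1b4, genes of the same families by name, had low wild-type means of 2.35, 3.26 and 1.72, with log2 differences of -0.05, -0.06 and 0.08.

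None of the relatives of Fxyd2 passed the test. Fxyd1 (phospholemman) stood at -0.13, Fxyd4, a pump regulator of the collecting duct, at -0.16, Fxyd5 (dysadherin) at -0.06, Fxyd6 at -0.015 and Fxyd7 at 0.012. Fxyd1, Fxyd4, Fxyd5 and Fxyd7 had low wild-type means of 2.64, 3.31, 3.51 and 3.18, and that of Fxyd6 was 5.46. Fxyd4 reached 13.3 in wild-type replicate 3, above the 8.32 to 9.86 of the other arrays. The mean of 7 principal and connecting tubule cell markers, a list that holds Fxyd4, was highest in that array at 0.27.

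**Figure D4:**
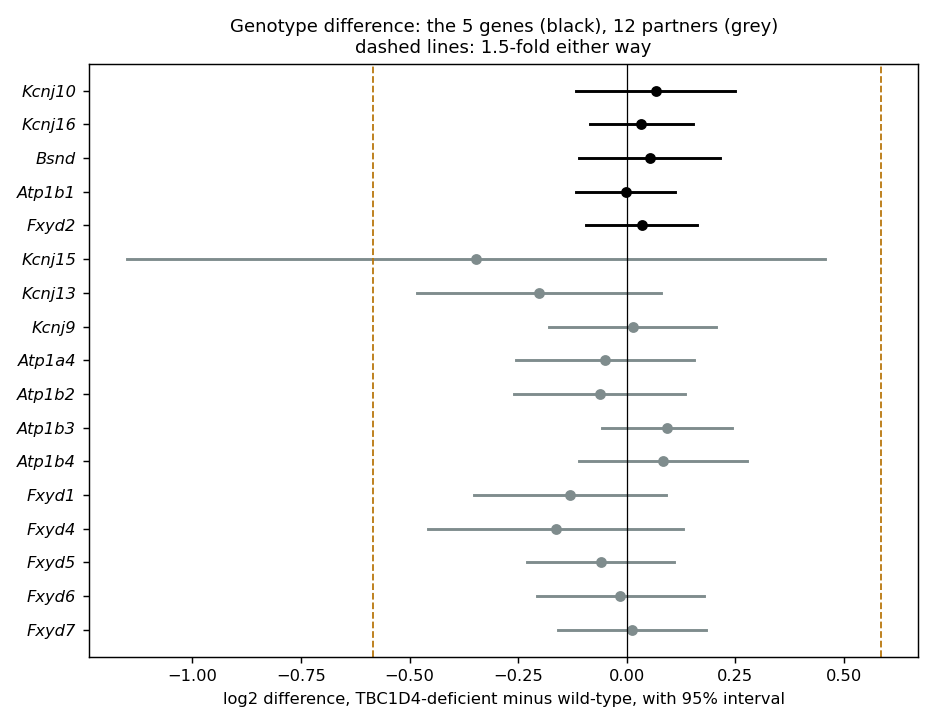
Log2 difference between genotypes (horizontal axis, TBC1D4-deficient minus wild-type) with its 95% limma interval for the 5 genes in black and 12 partner genes in grey; dashed lines mark 1.5-fold either way. All intervals cross 0, and only that of Kcnj15 leaves the 1.5-fold limits.

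No other gene of the pathway lists passed the test. Among 13 measured transporters that share the basolateral membrane, 9 lay above and 4 below 0 and 0 passed. Their smallest unadjusted p-values belonged to Slc2a1 (GLUT1) at -0.1, Atp2b4, a calcium pump, at 0.12, and the potassium chloride cotransporters Slc12a7 and Slc12a4 at 0.07 each. Of 16 regulators, 7 lay above and 9 below 0 and 0 passed. Prkaa2, a catalytic subunit of AMPK, stood at -0.12 (95% interval -0.29 to 0.04) and Cul3, the scaffold of the ligase that degrades WNK kinases, at -0.08. Pcbd1, a dimerization cofactor of transcription factors, stood at -0.06, and Cav1, a caveolin that binds Kir4.1, at -0.16. Cav1 is also abundant in endothelium, and the mean of 13 endothelial markers was lower in every TBC1D4-deficient array (-0.38 to 0.0013) than in any wild-type array (0.028 to 0.21), with all 13 genes below 0 (exact permutation p = 0.0286, the smallest possible; adjusted p = 0.257 over 9 marker lists). The wild-type means of these 13 markers were low, from 3.18 to 5.5, and that of Cav1 was 4.78. The part of the endothelial mean in the Cav1 difference was not tested.

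Of 8 apical partners, 2 lay above and 6 below 0 and 0 passed. Scnn1a, the α subunit of the epithelial sodium channel, stood at 0.14 (-0.02 to 0.29), Trpv5, a calcium channel, at -0.12, and the potassium channels Kcnma1 and Kcna1 at -0.06 and -0.12, with wild-type means of only 1.69 and 2.31. The other marker lists gave the surroundings of these genes. The mean of 12 DCT markers varied by 0.06 between arrays, with a genotype difference of 0.00097. Single markers in it varied more, and Trpv5 read 266.6 to 386.8 in wild-type arrays. The range was 1.72 for the proximal tubule mean, 0.37 for the thick ascending limb mean and 0.61 for the intercalated cell mean. It was 0.59 for endothelial, 0.57 for principal and connecting tubule, 0.31 for fibroblast and smooth muscle, 0.22 for podocyte and 0.21 for blood and immune cell means.

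The genes whose pattern over the 8 arrays was most like each of the 5 were sought among 4461 other genes with a mean log2 level of at least 6, by Pearson r. For Kcnj10 they were Mfge8 (0.953), Cdc14b (0.947) and Cables1 (0.945), and for Kcnj16 they were Pebp1 (0.939), Exoc3 (0.915) and Alkbh7 (0.912). For Bsnd they were Metap1 (0.962), Kbtbd4 (0.95) and Pgpep1 (0.942). Those of Atp1b1 were Mmab (0.948), Ncbp1 (0.94) and Rps19 (0.933), and those of Fxyd2 were Mea1 (0.957), Zpr1 (0.952) and Ptpn18 (0.941). No gene appears in more than 1 of these groups, and none of the 5 genes is among the nearest of another. These are the highest of many correlations over 8 arrays that share one scaling, and they are given as a description.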

How the data were processed

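One single-colour Affymetrix array with biotin labelling was hybridised per sample, 8 in all. The deposited values are linear probe set intensities made by the authors with Affymetrix Power Tools, per the submitters' processing notes; the sources used here give no version, summarisation or normalization. Array medians were 8.41 to 9.03, and a normalization to a common scale, if one was made, could hide a change common to most genes. Precision is limited by the number of arrays.

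Intensities were log2-transformed, with no pseudocount, filter or further normalization. The genotype contrast was fitted by limma 3.58.1 (R 4.3.3; lmFit and eBayes, 2-sided) on 23039 probe sets with at least 1 symbol, and p-values were adjusted by the Benjamini-Hochberg method, taking 0.05 as the threshold. The prior borrows spread from all probe sets. It widens the intervals of steady genes such as Atp1b1 and slightly narrows that of Kcnj10, the most variable of the 5. That the Kcnj10 interval lay inside 1.2-fold thus leans on the borrowed spread. Single values were tested by exact permutation. Of 4 planned subunit ratios 1 was computed, and the others are not reported here. Symbols came from the platform annotation, which may be old, and 21128 of 21158 probe sets with 1 symbol matched RefSeq by gene identifier. A gene with several such probe sets was read by the one with the highest mean. The tests were tried on simulated data first. Genes named are the 5, Tbc1d4, all measured partners, the 4 smallest p-values in each transporter or regulator list and the 3 nearest patterns. Markers named for the sample check, and Kcnj15 as a contrast, were chosen after values were seen. Genes and lists were chosen with earlier results of these data known. Alternatives covered scaling, offset, filter, prior, weights, covariates, a replicate block and left-out arrays.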

Additional observations from a re-analysis of the deposited data

Results flagged for a closer look

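In 34 groups of 4 arrays (the 5 genes and 12 partners in each genotype), 3 arrays lay far from the rest of their group by Dixon's test at its 95% limit, which chance does for about 1 group in 20. Fxyd2 in wild-type replicate 4 was at a log2 level of 10.46, with the nearest other wild-type array at 10.36. Kcnj9 in wild-type replicate 2 was at 2.52, with the nearest at 2.22, and this probe set is dim. Fxyd6 in TBC1D4-deficient replicate 2 was low at 5.25, with the nearest at 5.5.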

How the results depend on the processing

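None of the 5 genes passed the threshold in any of the 24 alternatives to the genotype fit. Of these 120 values, 110 kept their sign and 10 turned it. The count of probe sets called between genotypes was 1 in every alternative. Signs turned with the identifier range as a covariate for Kcnj10 (-0.011) and Atp1b1 (0.0046), and for Atp1b1 also with quantile normalization (0.052), median centring (0.018) and the proximal tubule mean as a covariate (0.0013). Within number sets they turned for Bsnd (-0.023, descriptions 5 to 8), Atp1b1 (0.0078, 9 to 12) and Fxyd2 (-0.011, 9 to 12), and quantile normalization turned the interaction of Kcnj16 to 0.036. The cause was not tested. Leaving out 1 array at a time gave genotype differences of -0.0072 to 0.0062 for Atp1b1 and -0.029 to 0.109 for the log2 ratio of Kcnj10 over Kcnj16. The same gave number set differences of -0.024 to 0.0069 for Kcnj16, -0.068 to 0.041 for Bsnd, -0.0071 to 0.0089 for Atp1b1 and -0.023 to 0.033 for Fxyd2. Interactions were -0.107 to 0.177 for Kcnj10 and -0.0398 to 0.0383 for Kcnj16. Genotype differences with 1 array left out were 0.016 (without wild-type replicate 1) to 0.136 (without wild-type replicate 2) for Kcnj10, 0.019 to 0.045 for Kcnj16, 0.013 to 0.104 for Bsnd and 0.014 to 0.061 for Fxyd2, and the number set difference of Kcnj10 was -0.166 to -0.053.

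Among correlations with the proximal tubule mean, that of Kcnj10 was 0.0896 without the 2 farthest arrays and 0.0779 with genotype means removed, and that of Atp1b1 was -0.429 after quantile normalization. With the thick ascending limb mean, Kcnj16 gave 0.0147 after quantile normalization, 0.243 without the 2 farthest arrays and 0.0938 with genotype means removed, Atp1b1 gave -0.0752 after quantile normalization and Fxyd2 0.209 without the 2 farthest arrays. These signs are opposite to those of the main values. Same-numbered replicates had deviation correlations of 0.402, -0.189, 0.0391 and 0.0117, so the numbers were not taken as pairs, and with the replicate block 1 probe set passed and Kcnj10 differed by 0.07. The other 3 planned ratios were not run. With 4 arrays a group, each interval gives the differences that these data leave possible, and small changes may have been missed. Counts over all probe sets that moved were those of the number set contrast (2, and 0 with the identifier range as a covariate, 0 to 4 with 1 array left out), of the interaction (0, but 3 without wild-type replicate 1, and 11 without TBC1D4-deficient replicate 1) and of the identifier range (0, but 12 without wild-type replicate 2 and 2 without wild-type replicate 4). The identifier range as a contrast of its own, the correlations of partner genes and of gene pairs, and the alternatives to the interaction and the left-out arrays of the number set contrast were chosen after seeing the data.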
